A study of Mus musculus with 15 samples.

Results

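The genes described here are those whose symbol is Zfp followed by a digit, the mouse naming family of zinc finger proteins. They were found by that symbol in the deposited tables of genes that changed between sorted T cell populations. Of 4567 genes listed in at least 1 of 4 tables, 4423 have a symbol and 40 are Zfp genes. The table of CD4 Flica-negative against control cells lists 15 of them among 2069 genes, that of CD8 Flica-negative against control cells 18 among 2496, that of CD8 Flica-positive against control cells 27 among 3461, and that of CD8 Flica-positive against Flica-negative cells 7 among 972. In all, 20 of the 40 are listed in a single table, 25 only in CD8 tables, 5 only in the CD4 table, and 10 in the CD4 table and a CD8 table. Zfp genes that passed the authors' limits on p-value and fold change in no comparison are not listed and have no values here. Among them are Zfp36, Zfp36l1, Zfp36l2 and Zfp683.

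The study sorted T cells from mice with acute graft-versus-host disease (aGvHD), in which donor T cells attack the tissues of a host. Lethally irradiated BALB/c mice received bone marrow and T cells of C57Bl/6 donors, and on day 7 splenic T cells were sorted by CD4 or CD8 and by Flica, a dye-labelled inhibitor that stays bound to active caspase-1. Each of 5 groups holds 3 libraries. CD4 control and CD8 control cells are Flica-negative cells from untreated C57Bl/6 mice on day 0. CD4 Flica-negative, CD8 Flica-negative and CD8 Flica-positive cells were taken on day 7 from BALB/c hosts with aGvHD that had received C57Bl/6 cells. The paper treats them as donor cells. The antibodies it lists include none that tells donor from host cells, so the origin of each sorted cell is not established here. A day 7 sort pooled many mice while a control sort took few, down to a single mouse, and control and day 7 cells also differ in transplantation, irradiation of the host and time at once.

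Most Zfp proteins bind DNA through rows of classical zinc fingers, short loops held by a zinc ion between a pair of cysteines and a pair of histidines. A large class also carries a KRAB box, which recruits the corepressor Trim28 and with it the enzymes of heterochromatin and DNA methylation, and is best known for silencing transposable elements. The name also covers proteins with fingers of another type, such as the RNA-binding Zfp36 proteins that shorten cytokine messages in T cells.

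The files give whole-number read counts from oligo-dT-captured mRNA. Dividing a count by the size factor of its library gives the normalized count. Counts on listed genes summed to between 2143579 (CD4 control replicate 1) and 11046043 (CD8 Flica-positive replicate 1) per library, which is not the depth, since genes that were not listed are missing. Groups were compared with edgeR's quasi-likelihood test, with p-values adjusted over all listed genes (Benjamini-Hochberg), and a gene is called at an adjusted p below 0.05. Log2 fold changes are given with the standard error (SE) that this test implies, and its p-values measure only the spread between these libraries, not that between mice. Since the authors listed genes for an adjusted p below 0.05 and a log2 fold change beyond 2 on the same libraries, a call in a comparison that listed the gene is no further evidence.

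Of 13 T cell markers only Cd8a is listed, so T cell identity could not be checked further. Cd8a had 21642, 18353 and 19250.0 normalized counts in the CD8 control libraries, 13841, 14967 and 12817 in the CD8 Flica-negative and 11437, 11492 and 9348 in the CD8 Flica-positive libraries. CD4 cells had 49.1, 42.5 and 116.5 on day 0 and 4.41, 4.46 and 10.4 on day 7. Every CD8 library was thus far above every CD4 library. Zbtb7b, a factor of the CD4 lineage noticed after its values were seen, had 5673 ± 661 (SD, n = 3) in CD4 control and 86.6 ± 39.6 in CD8 control cells. On day 7 it had 3854 ± 412.5 in CD4 Flica-negative, 1695 ± 252 in CD8 Flica-negative and 1655 ± 165 in CD8 Flica-positive cells. CD4 cells were thus higher at both times, by less on day 7. The number of Zfp genes without a count was 18 of 40 in CD8 Flica-positive replicate 3 and between 1 and 9 in the other libraries. That library also had the most listed genes at 0, 1369 of 4567, ahead of 1266 in CD8 control replicate 3 and 1210 in CD4 control replicate 3. Values of scarce Zfp genes in CD8 Flica-positive cells rest on the other libraries of that group to a greater degree. The paper also reports that most Flica-positive T cells took up a dye that enters cells with damaged membranes, and that Flica-negative cells took up little or none. Whether the sort for sequencing left such cells out is not known here, and their part in the Flica-positive values was not tested.

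As a sum over the 40 genes, Zfp transcripts were lower on day 7. The normalized counts summed to 8648, 8035 and 9657 in CD4 control and 2890.0, 3152 and 2825 in CD4 Flica-negative libraries. In CD8 cells they summed to 8339.6, 8991 and 8405 in control, 1995, 1882 and 1942 in Flica-negative and 2337, 2636 and 2629.7 in Flica-positive libraries. No day 7 library reached the lowest control library of its lineage. Zfp831 and Zfp318 made up about as much of the control sums as all the others together: without them the sums were 4339, 4845 and 4334 in CD8 control and 1363, 1316 and 1425 in CD8 Flica-negative libraries. Fewer cells of a type and less RNA per cell cannot be told apart in such bulk samples.

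**Figure D1:**
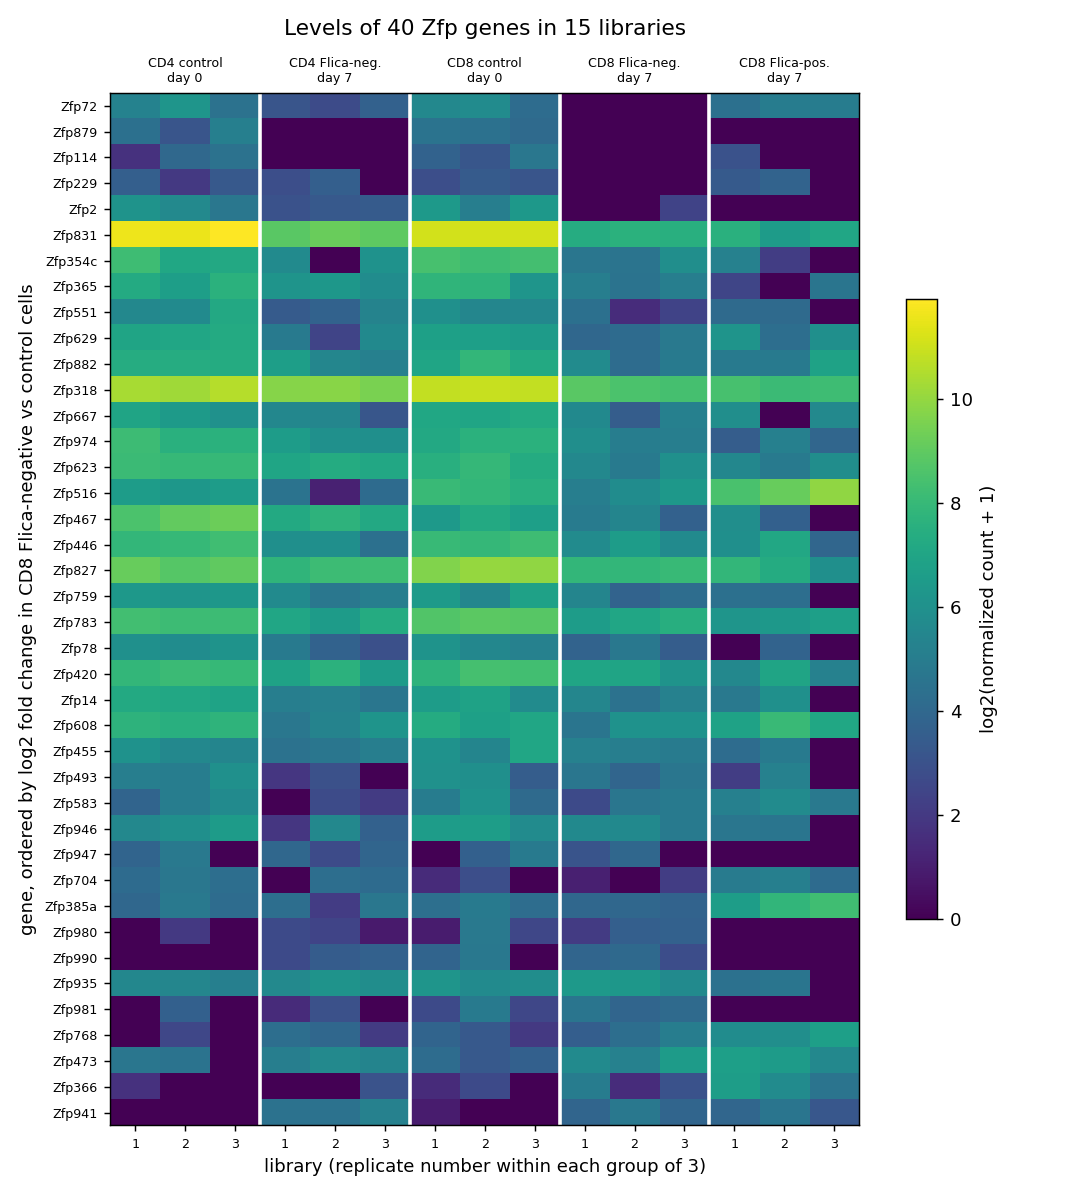
Levels of the 40 Zfp genes (log2 of the normalized count plus 1, colour) in the 15 libraries, with genes ordered by their log2 fold change between CD8 Flica-negative and CD8 control cells. Most genes are lower in the day 7 libraries of a lineage than in its control libraries, and Zfp941 is at or near 0 in all 6 control libraries.

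Per kilobase of annotated exon, Zfp831 stood highest in both controls, at 338 normalized counts in CD4 and 227 in CD8 control cells. In CD4 control cells Zfp467 (119), Zfp623 (104) and Zfp318 (97.1) followed per kilobase. In CD8 control cells the order below Zfp831 was Zfp318 (133.5), Zfp827 (106) and Zfp623 (78.2), while Zfp467 was at 26.5 per kilobase. Zfp941 and Zfp990 had no count in CD4 control cells.

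From control to day 7 in CD8 Flica-negative cells, 25 of the 40 Zfp genes were called lower (62.5%) and 2 higher (5%), where 29.5% of all 4491 genes tested were called lower and 38.2% higher. The log2 fold change was below 0 for 34 of 40 Zfp genes and for 46.3% of all genes, with medians of -1.75 and 0.66. With the 4 genes that had no count in a group set to their bound, the Zfp median was -1.67. TMM scaling moved the median of all genes by -0.42 and left 35 Zfp genes below 0. Of the 25 called lower, 20 were called in every fit with a library left out, and Zfp14, Zfp551, Zfp608, Zfp759 and Zfp78, whose values follow, were not.

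In CD4 Flica-negative cells against CD4 control cells, 24 of the 40 were called lower (60%) and 2 higher, against 27.3% and 32.3% of all 4424 genes tested. The log2 fold change was below 0 for 33 Zfp genes and for 49.1% of all genes, with medians of -1.31 and 0.11 (TMM moved the latter by -0.22 and left 33 Zfp genes below 0). With genes without a count in a group at their bound the Zfp median was also -1.31. Of the 24 calls, 13 held in every fit with a library left out, and 11 were lost in at least 1 of them (Zfp114, Zfp2, Zfp354c, Zfp365, Zfp420, Zfp551, Zfp583, Zfp623, Zfp72, Zfp78 and Zfp882), each with its values where the gene is described. The fit of all 15 libraries called 14 of the 24, without Zfp14 (edgeR adjusted p = 0.05), Zfp2 (0.057), Zfp354c (0.062), Zfp365 (0.2), Zfp420 (0.11), Zfp467 (0.072), Zfp551 (0.12), Zfp623 (0.089), Zfp78 (0.12) and Zfp882 (0.059).

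A part of these responses was used less by the authors' selection. The 25 Zfp genes listed only in CD8 tables entered through CD8 libraries, so their change in CD4 cells was used only in so far as one past the limits of the CD4 table would have listed them there too. Of these, 12 of 25 were called lower in CD4 cells (48%) and 0 higher, against 17.9% and 12.8% of the 2356 genes listed only in CD8 tables. They are Zfp318, Zfp354c, Zfp365, Zfp420, Zfp467, Zfp551, Zfp623, Zfp78, Zfp783, Zfp827, Zfp882 and Zfp974. In the fit of all 15 libraries only 4 of the 12 were called (Zfp318, Zfp783, Zfp827 and Zfp974), and of these 12 only those 4 and Zfp467 were called in every fit with a library left out. The median log2 fold change was -0.90 for the 25 and -0.39 for all genes of that kind, and 21 of 25 were below 0, against 57.2%. In the other direction, Zfp14, Zfp446 and Zfp608, 3 of the 5 listed only in the CD4 table, were called lower in CD8 Flica-negative cells and 0 higher, against 12.2% and 20.4% of 427 such genes. Of these 3, only Zfp446 was called in every fit with a library left out and with the replicate block. The background genes were listed for rises as well as falls and were not matched to the Zfp genes for direction. Of genes listed only in CD8 tables, 84.4% had the same sign in both lineages. How far the shares called lower follow from the direction in which the Zfp genes were listed was not tested.

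The direction from control to day 7 was the same in CD4 and CD8 Flica-negative cells, which have separate control libraries, for 37 of the 40 Zfp genes (92.5%), 32 of them below 0 in both. Over all listed genes tested in both it was the same for 3923 of 4373 (89.7%), so the share for the Zfp genes was near the background, while the balance of signs differed: 22 Zfp genes were called lower in both and 1 higher in both, where all listed genes gave 920 and 1236. No Zfp gene was called in opposite directions (19 of all 4373 genes were), and the 3 with opposite signs, Zfp980, Zfp981 and Zfp990, had few counts. Among the 25 listed only in CD8 tables the sign was shared by 23 (92%), against 84.4% of such genes. The paper describes splenocytes of a sort being divided into these groups, so CD4 and CD8 libraries with the same replicate number may share mice. Erythroid marker sums were 9222, 9193 and 2053 in CD4 control and 7337, 8153 and 2019.5 in CD8 control libraries, lowest in replicate 3 of both. The 2 responses are therefore not taken as independent.

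**Figure D2:**
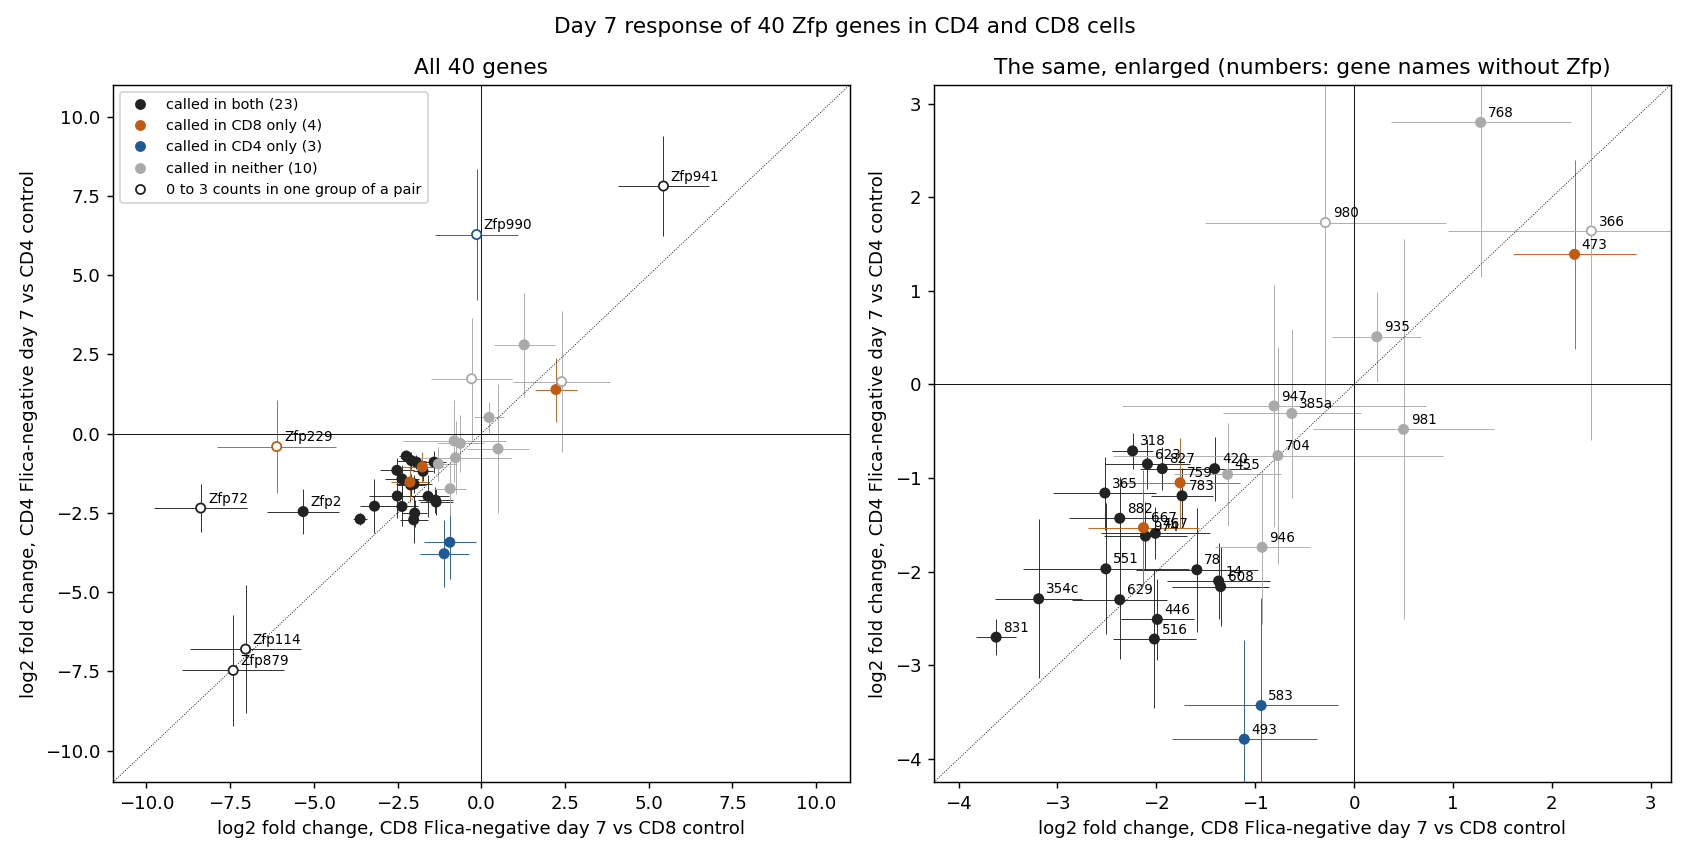
Log2 fold change from control to day 7 of each Zfp gene in CD8 (x axis) and CD4 (y axis) Flica-negative cells, with standard errors as bars, over all 40 genes (left) and enlarged around the dense part (right). Black points are called in both lineages (23 genes), and open points have 0 to 3 counts in a group, so that their fitted values are no measure of size.

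A test of the difference between the CD4 and CD8 responses called 4 of the 40 genes, a share near the background (10.4% of all 4511 genes tested, either direction): Zfp318, Zfp831, Zfp72 and Zfp827. In each the CD4 response lay above the CD8 response, since the CD4 cells fell less. Over all 40 the median difference was 0.50, against -0.11 over all genes, with 28 above 0 and 12 below, also with TMM scaling. The main fit treated CD4 and CD8 libraries as unpaired, although those with the same replicate number may share mice.

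Zfp831 (ENSMUSG00000050600), a protein of 1628 residues with 2 classical fingers and no KRAB-like box found, had the most counts of all members in every control library. Among CD4 libraries it had 3129, 2973.5 and 3846 normalized counts in the control libraries and 459, 579 and 497 in the Flica-negative libraries. In CD8 cells it had 2175, 2224 and 2288 in control, 165, 197 and 180.4 in Flica-negative and 185, 90.6 and 133 in Flica-positive libraries. All control libraries were high and all day 7 libraries low, with no overlap in either lineage. The log2 fold change was -3.62 (SE 0.20, edgeR adjusted p = 2.8e-07) in CD8 Flica-negative cells and lay between -3.69 and -3.56 with a library left out. It was -2.70 (SE 0.19, edgeR adjusted p = 2.9e-07) in CD4 cells. The difference between these, 0.93 (SE 0.25, edgeR adjusted p = 0.023), was lost with TMM scaling (edgeR adjusted p = 0.089, and 0.0028 to 0.09 over the alternatives with all libraries, DESeq2 included) and without CD4 control replicate 1 (0.06), CD4 control replicate 2 (0.066) or CD4 Flica-negative replicate 2 (0.064), and also in the fit of all 15 libraries (0.09).

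Zfp318 (ENSMUSG00000015597), which mature B cells need to make IgD beside IgM from long transcripts, is a member in which no KRAB-like box was found. In CD4 cells its normalized counts were 1319, 1167 and 1535 in control and 846, 895 and 726 in Flica-negative libraries. In CD8 cells they were 1825, 1922 and 1783 in control, 468, 369.5 and 337 in Flica-negative and 350.5, 274 and 298 in Flica-positive libraries. The CD8 controls were above the CD4 controls, and on day 7 this order was inverted, with each CD4 library above each CD8 library. The fall was -2.24 (SE 0.21, edgeR adjusted p = 8.5e-06) on the log2 scale in CD8 and -0.71 (SE 0.19, edgeR adjusted p = 0.0073) in CD4 Flica-negative cells. The gene was listed through CD8 cells only. The responses differed by 1.53 (SE 0.27, edgeR adjusted p = 0.0013), which was called in each of 12 fits with a library left out (between 1.43 and 1.68) and with TMM scaling (edgeR adjusted p = 0.015, and 7.9e-07 to 0.015 over the alternatives with all libraries, DESeq2 included).

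B cell markers moved with these falls. Of 11 B cell and plasma cell markers 9 are listed, Igkc having the most normalized counts, and they summed to 9247, 6956 and 7394 in CD4 control and 252, 145 and 140.2 in CD4 Flica-negative libraries. In CD8 cells they summed to 10056, 6631 and 6942 in control, 1071, 751 and 657 in Flica-negative and 7584, 9609.5 and 4843 in Flica-positive libraries. Ms4a1 stood at 933 ± 39.9 (SD, n = 3) in CD4 and 898 ± 233 in CD8 control cells, and at 0 in both Flica-negative groups on day 7. Ebf1 was at 0 in CD4 Flica-negative cells. Of the 9 markers 8 were called lower in each Flica-negative group against its controls, and Jchain was not called. In CD8 Flica-negative cells Igkc was at 575 ± 161 against 1574 ± 415 in control cells, Cd79b at 149 ± 23.8 against 1030.4 ± 316, and Jchain at 76.1 ± 37.9 against 35.04 ± 16.5. In CD8 Flica-positive cells 7 of the 9 were called lower than in control cells, while Igkc and Jchain were called higher and make up most of the sum. The part of B cell RNA in the falls of Zfp318 and the other Zfp genes was not tested.

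Zfp827 (ENSMUSG00000071064), whose product recruits the NuRD remodelling complex and is studied at telomeres, had 815, 1043 and 976 normalized counts in CD8 control, 236.5, 239 and 262 in CD8 Flica-negative and 233, 158 and 60.99 in CD8 Flica-positive libraries. CD4 values were 562, 434 and 512 in control and 220.4, 286 and 299.5 in Flica-negative libraries. All control libraries were above all day 7 libraries of their lineage, and the lowest value was that of Flica-positive replicate 3. Expressed as a log2 fold change it was -1.94 (SE 0.23, edgeR adjusted p = 4.0e-05) in CD8 Flica-negative, -2.65 (SE 0.47, edgeR adjusted p = 0.0012) in CD8 Flica-positive and -0.90 (SE 0.23, edgeR adjusted p = 0.006) in CD4 Flica-negative cells. The CD4 and CD8 Flica-negative responses differed by 1.04 (SE 0.32, edgeR adjusted p = 0.047), a call that held in 2 of 12 fits with a library left out, with an adjusted p of 0.0051 to 0.21 over the alternatives with all libraries, DESeq2 included. It was lost without CD4 control replicate 1 (0.06), CD4 control replicate 2 (0.11), CD4 control replicate 3 (0.068), CD4 Flica-negative replicate 2 (0.092), CD4 Flica-negative replicate 3 (0.089), CD8 control replicate 2 (0.12), CD8 control replicate 3 (0.081), CD8 Flica-negative replicate 1 (0.067), CD8 Flica-negative replicate 2 (0.086) or CD8 Flica-negative replicate 3 (0.057), and also with TMM scaling (0.12), in the fit of all 15 libraries (0.21) and with the replicate block (0.065).

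Zfp783 (ENSMUSG00000072653), annotated as a transcribed pseudogene that overlaps Zfp956 on the same strand, also fell. Its normalized counts were 311.5, 284 and 285 in CD4 control, 133, 91.5 and 159 in CD4 Flica-negative, 404, 478 and 452 in CD8 control, 93.8, 129.7 and 175 in CD8 Flica-negative and 73.9, 80.05 and 105 in CD8 Flica-positive libraries. No day 7 library reached a control library. The change (log2) was -1.74 (SE 0.31, edgeR adjusted p = 7.5e-04) in CD8 and -1.19 (SE 0.30, edgeR adjusted p = 0.0047) in CD4 Flica-negative cells. The gene was listed through CD8 Flica-positive against control cells, so the CD8 Flica-negative value shares its control libraries with the selection, and the CD4 value was used only through the limit of the CD4 table.

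Among members with a KRAB-like box, Zfp354c (ENSMUSG00000044807), a repressor studied in bone cells, had 351.5, 300.0 and 329 normalized counts in CD8 control, 24.5, 23.3 and 58.7 in CD8 Flica-negative and 36.3, 3.53 and 0 in CD8 Flica-positive libraries. The control libraries were high and close together, and no day 7 library came near them. Its log2 fold change was -3.19 (SE 0.44, edgeR adjusted p = 1.1e-04) in Flica-negative and -4.60 (SE 1.16, edgeR adjusted p = 0.0082) in CD8 Flica-positive cells, which share their controls. The latter rests on Flica-positive replicate 1 for its size and was -7.43 without it. In CD4 cells it had 296, 134 and 147 in control and 50.2, 0 and 65.7 in Flica-negative libraries, 1 of them without a count. That fall, -2.29 (SE 0.85, edgeR adjusted p = 0.036), was not called by DESeq2's Wald test (adjusted p = 0.17, 0.0048 to 0.17 over the alternatives with all libraries, DESeq2 included) or without CD4 control replicate 1 (0.13) or CD4 Flica-negative replicate 1 (0.085), and also in the fit of all 15 libraries (0.062). Its neighbour Zfp879 (ENSMUSG00000044296) lies 4306 bases away on the same strand of chromosome 11. Zfp879 had 20.1, 7.74 and 34.7 in CD4 control and 22.03, 20.6 and 16.4 in CD8 control libraries and no count in any of the day 7 libraries. This makes it at least 6.87-fold lower in CD8 Flica-negative, 5.54-fold in CD8 Flica-positive and 7.45-fold in CD4 cells, with the floor at 3 counts per library, and the call in CD8 Flica-positive cells was lost with the replicate block (edgeR adjusted p = 0.09).

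Zfp446 (ENSMUSG00000033961), listed only through CD4 cells, had 237, 253 and 303 normalized counts in CD4 control and 60.8, 59.1 and 20.02 in CD4 Flica-negative libraries, a log2 fold change of -2.51 (SE 0.43, edgeR adjusted p = 3.7e-04). In CD8 cells it had 256, 240.0 and 295 in control, 53.3, 94.2 and 50.9 in Flica-negative and 59.8, 141 and 14.3 in Flica-positive libraries. Its control libraries were all high and its day 7 libraries all below them, Flica-positive replicate 2 the nearest. The change in CD8 Flica-negative cells was -1.99 (SE 0.37, edgeR adjusted p = 9.6e-04). That in CD8 Flica-positive cells, -1.88 (SE 0.73, edgeR adjusted p = 0.046), was lost without CD8 control replicate 1 (0.089), CD8 control replicate 2 (0.079), CD8 control replicate 3 (0.11) or CD8 Flica-positive replicate 1 (0.11), and also with the replicate block (0.06), and was -2.83 without Flica-positive replicate 2. Zfp882 (ENSMUSG00000089857) had 125, 233 and 151 in CD8 control, 52.2, 17.7 and 28.5 in CD8 Flica-negative and 29.3, 29.4 and 116 in CD8 Flica-positive libraries. Flica-positive replicate 3 stood near the lowest control library, and the Flica-negative libraries stood apart, at -2.37 (SE 0.51, edgeR adjusted p = 0.0023) on the log2 scale. In CD4 cells Zfp882 had 165, 162.5 and 161 in control and 102, 43.5 and 35.2 in Flica-negative libraries, a change of -1.43 (SE 0.44, edgeR adjusted p = 0.016) that was lost without CD4 Flica-negative replicate 2 (0.061), and also in the fit of all 15 libraries (0.059).

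A KRAB-like box was found in 18 of the 39 members that could be translated from annotated transcripts, and classical fingers numbered from 0 in Zfp365 to 21 in Zfp759 and Zfp974. The search used 1 sequence pattern on the longest translated transcript of each gene, so a box that it missed counts as none. Members without the box are those in which none was found. The median was 12 fingers with the box and 11 without. In CD8 Flica-negative cells, 9 of 18 members with the box and 15 of 21 without it were called lower, with 1 called higher in each class, where 29.5% of all genes were called lower and 38.2% higher. In CD4 cells these were 8 and 15 lower, and 2 and 0 higher, against 27.3% and 32.3% of all genes. The medians of the log2 fold change in CD8 cells were -1.33 with the box and -2.01 without, and in CD4 cells -1.48 and -1.16, so the order of the classes was not the same in both lineages. Whether the classes differ was not tested.

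Of the members in which no box was found, Zfp629 (ENSMUSG00000045639), with 19 fingers, had 124, 132.5 and 156.5 normalized counts in CD4 control and 28.2, 4.46 and 49.6 in CD4 Flica-negative libraries. In CD8 cells it had 107.5, 106 and 92.3 in control, 14.9, 16.8 and 26.8 in Flica-negative and 71.5, 18.8 and 59.8 in Flica-positive libraries. Both Flica-negative groups were low, while Flica-positive replicate 1 and replicate 3 stood between them and the controls. On the log2 scale the change was -2.37 (SE 0.48, edgeR adjusted p = 0.0016) in CD8 and -2.30 (SE 0.63, edgeR adjusted p = 0.0087) in CD4 Flica-negative cells, and -1.02 (SE 0.69, edgeR adjusted p = 0.19) in CD8 Flica-positive cells. The last was -0.63 without Flica-positive replicate 2, and TMM scaling gave -2.68 for it and called it (edgeR adjusted p = 0.0092).

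Zfp365 (ENSMUSG00000037855), a coiled-coil protein of neurons that binds Disc1 and in which no classical finger was found, had 222, 213 and 72.1 normalized counts in CD8 control, 33.03, 22.4 and 32.8 in CD8 Flica-negative and 4.69, 0 and 23.9 in CD8 Flica-positive libraries. CD8 control replicate 3 was far below the other CD8 control libraries and still above every CD8 day 7 library. Expressed as a log2 fold change it was -2.52 (SE 0.52, edgeR adjusted p = 0.0019) in Flica-negative and -4.13 (SE 1.23, edgeR adjusted p = 0.016) in CD8 Flica-positive cells. The latter call was lost without CD8 control replicate 1 (0.05) or CD8 Flica-positive replicate 1 (0.055). In CD4 cells the counts were 156, 101 and 196 in control and 71.4, 78.1 and 53.7 in Flica-negative libraries, with no overlap. That change of -1.16 (SE 0.39, edgeR adjusted p = 0.023) was lost without CD4 control replicate 1 (0.059), CD4 control replicate 3 (0.073) or CD4 Flica-negative replicate 3 (0.064), and also in the fit of all 15 libraries (0.2) and with the replicate block (0.071).

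Zfp974 (ENSMUSG00000070709) had 143, 193 and 192 normalized counts in CD8 control, 57.5, 31.7 and 33.7 in CD8 Flica-negative and 10.6, 35.3 and 14.3 in CD8 Flica-positive libraries. The group means fell in that order, though Flica-positive replicate 2 lay among the Flica-negative libraries. Between Flica-positive and Flica-negative cells the gene was not called (log2 fold change -1.02, SE 0.87, edgeR adjusted p = 0.42). Against control cells the log2 fold change was -3.13 (SE 0.69, edgeR adjusted p = 0.0041) in Flica-positive and -2.11 (SE 0.42, edgeR adjusted p = 0.0015) in Flica-negative cells. Of 150-base stretches of its transcripts, 6.73% also occur in Zfp780b, so a small part of its reads cannot be assigned to 1 gene. Zfp420 (ENSMUSG00000058402), whose product restrains p53, had 204, 333 and 312 in CD8 control, 128, 124 and 68.2 in CD8 Flica-negative and 46.9, 124 and 37.1 in CD8 Flica-positive libraries. All day 7 libraries were below all control libraries, at -1.41 (SE 0.37, edgeR adjusted p = 0.0072) on the log2 scale in Flica-negative cells. It was listed through the Flica-positive cells and the same controls. CD4 cells had 234.5, 275 and 253.5 in control and 116, 202 and 91.3 in day 7 libraries, also without overlap. That fall of -0.90 (SE 0.34, edgeR adjusted p = 0.037) was lost without CD4 control replicate 1 (0.059), CD4 control replicate 2 (0.1), CD4 Flica-negative replicate 1 (0.11) or CD4 Flica-negative replicate 3 (0.1), and also in the fit of all 15 libraries (0.11).

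Zfp623 (ENSMUSG00000050846), with 13 fingers and no box found, had 276, 249.5 and 248 normalized counts in CD4 control and 127, 161 and 142 in CD4 Flica-negative libraries. CD8 cells had 179.7, 245 and 158 in control, 45.8, 28.9 and 62.1 in Flica-negative and 44.5, 28.2 and 56.2 in Flica-positive libraries. Both day 7 CD8 groups were low and alike, and the CD4 day 7 group lay between them and its controls. The CD4 fall of -0.85 (SE 0.27, edgeR adjusted p = 0.019), in a gene listed through CD8 cells only, was lost without CD4 control replicate 1 (0.058) or CD4 Flica-negative replicate 1 (0.053), and also in the fit of all 15 libraries (0.089) and with the replicate block (0.056). The CD8 Flica-negative fall was -2.09 (SE 0.43, edgeR adjusted p = 0.0017), and the difference between the responses (1.24, SE 0.49, edgeR adjusted p = 0.12) was called by DESeq2's Wald test (adjusted p = 0.038) but not by edgeR's.

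Zfp467 (ENSMUSG00000068551), which favours fat over bone formation in stromal cells, had more counts in CD4 than in CD8 control libraries. It had 375, 534 and 605 normalized counts in CD4 control and 85.5, 149 and 104 in CD8 control libraries. On day 7 it had 151, 209.8 and 143 in CD4 Flica-negative, 29.8, 41.99 and 12.1 in CD8 Flica-negative and 58.6, 11.8 and 0 in CD8 Flica-positive libraries. CD4 cells were above CD8 cells at each time, and each lineage fell, with no overlap between control and day 7. The change (log2) was -1.59 (SE 0.28, edgeR adjusted p = 4.2e-04) in CD4 and -2.01 (SE 0.55, edgeR adjusted p = 0.0088) in CD8 Flica-negative cells. It was listed through CD8 Flica-positive cells alone, and its CD4 call was lost in the fit of all 15 libraries (edgeR adjusted p = 0.072, 4.8e-07 to 0.072 over the alternatives with all libraries, DESeq2 included). The responses were not detectably different (edgeR adjusted p = 0.69), and the difference between the control groups themselves was not tested.

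**Figure D3:**
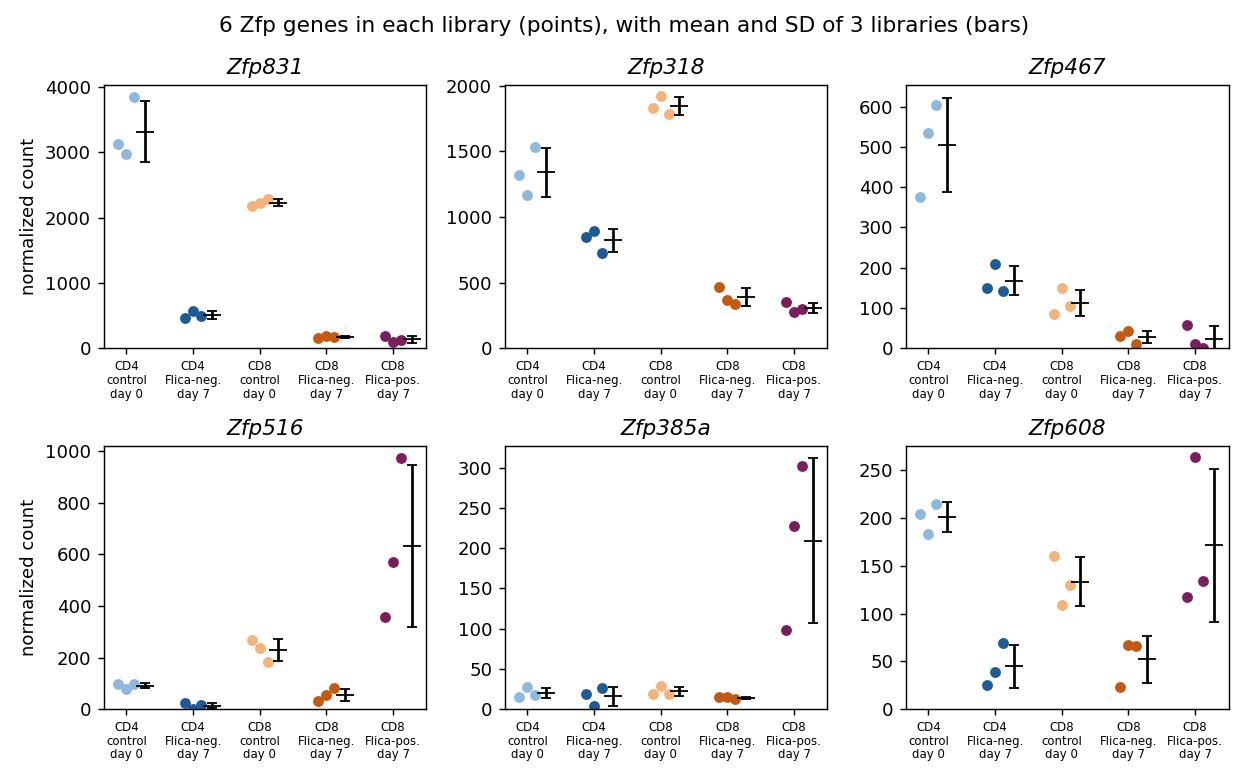
Normalized counts of Zfp831, Zfp318, Zfp467, Zfp516, Zfp385a and Zfp608 in each of the 15 libraries (points, coloured by group), with the mean and SD of the 3 libraries of a group (bars). The upper genes are lower in every day 7 library than in the control libraries of the same lineage, and the lower genes are higher in all 3 CD8 Flica-positive libraries than in all 3 CD8 Flica-negative libraries.

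Few members rose from control to day 7, and those below were singled out after their values were seen. Zfp941 (ENSMUSG00000060314), a KRAB member, was called higher in both lineages. It had 0, 0 and 0 normalized counts in CD4 control and 21.2, 21.2 and 36.8 in CD4 Flica-negative libraries, at least 8.88-fold higher on day 7. In CD8 cells it had 0.881, 0 and 0 in control, 13.8, 26.1 and 13.8 in Flica-negative and 14.1, 23.5 and 8.37 in Flica-positive libraries. With 1 count in the CD8 controls, the Flica-negative ratio was 59.2 (95% exact binomial counting interval 10.2 to 2379). The gene was thus near absent on day 0 and present in every day 7 library, at low counts. Its call in Flica-negative cells held in each fit with a library left out in both lineages (edgeR adjusted p = 0.002 in CD4 and 0.0056 in CD8 Flica-negative cells). In Flica-positive cells the ratio to controls was 50.6, and that call was lost without CD8 control replicate 2 (0.057) or CD8 Flica-positive replicate 2 (0.059), and also with TMM scaling (0.08) and with the replicate block (0.11).

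Zfp473 (ENSMUSG00000048012), which works with the U7 particle that trims the ends of histone messages, had 17.6, 8.96 and 11.5 normalized counts in CD8 control, 51.1, 36.4 and 92.3 in CD8 Flica-negative and 104, 91.8 and 45.4 in CD8 Flica-positive libraries. All day 7 libraries were above all control libraries. Its log2 fold change was 2.23 (SE 0.62, edgeR adjusted p = 0.0096) in Flica-negative and 2.65 (SE 0.79, edgeR adjusted p = 0.016) in CD8 Flica-positive cells. The former was lost without CD8 Flica-negative replicate 3 (0.063), and also in the fit of all 15 libraries (0.05). The latter was lost with TMM scaling (log2 fold change 1.07, edgeR adjusted p = 0.28, 7.2e-05 to 0.28 over the alternatives with all libraries, DESeq2 included) and without CD8 control replicate 2 (0.06), and also with the replicate block (0.11). In CD4 cells it was not called, at 1.39 (SE 1.01, edgeR adjusted p = 0.25), or 0.80 without CD4 control replicate 3. Genes of replication and division moved the same way: 14 of 20 are listed, Mki67 having the most counts, and all 14 were called higher than in control cells in each day 7 group. Their summed normalized counts were 3453, 2547 and 2799.5 in CD8 control, 25211.5, 41077 and 48708.5 in CD8 Flica-negative and 55304, 51329 and 59969 in CD8 Flica-positive libraries, and 2473, 2538 and 2433 in CD4 control and 16922, 17483 and 23315.5 in CD4 Flica-negative libraries. The part of cell division in the change of Zfp473 was not tested.

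Zfp768 (ENSMUSG00000047371), with 10 fingers, had 53.9, 58.9 and 104 normalized counts in CD8 Flica-positive, 10.7, 18.7 and 31.9 in CD8 Flica-negative and 13.2, 8.96 and 2.88 in CD8 control libraries. The Flica-positive libraries were above all others, and the Flica-negative libraries overlapped the controls. Neutrophil and macrophage markers, given below, were also highest in the Flica-positive libraries. Against control cells the Flica-positive change was 3.09 (SE 0.90, edgeR adjusted p = 0.015), which was lost with TMM scaling (log2 fold change 1.36, edgeR adjusted p = 0.2, 1.0e-04 to 0.2 over the alternatives with all libraries, DESeq2 included) and with the replicate block (0.1). Among CD4 libraries it had 0, 4.83 and 0 in control and 18.5, 14.5 and 3.2 in Flica-negative libraries, not called by edgeR's test (adjusted p = 0.16), though listed in the CD4 table. Without CD4 control replicate 2, the only CD4 control library with a count, it was called (edgeR adjusted p = 0.045). The fitted value then went from 2.80 to 6.69, which is no measure of size.

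In Flica-positive CD8 cells against control CD8 cells, which also serve the Flica-negative comparison, 16 of 40 Zfp genes were called lower (40%) and 6 higher (Zfp366, Zfp385a, Zfp473, Zfp516, Zfp768 and Zfp941, or 15%), where 24.1% of all 4547 genes tested were called lower and 47.1% higher. With a library left out, 10 of the 16 calls lower and 3 of the 6 calls higher held in every fit. The replicate block called fewer in both directions, at counts given in the closing section. The Zfp median log2 fold change was -2.17 (-1.94 with 6 genes at their bound), against 2.04 over all genes. TMM scaling moved the latter by -1.65, which raised the calls lower among all genes from 33.8% to 56.7% of calls, and gave a Zfp median of -3.71. It gave 27 Zfp genes lower and 0 higher. The share of all genes called lower with TMM scaling is not given here, so the 27 are not set against a background. With TMM scaling the values of Zfp446, Zfp827 and Zfp974 given above went to -3.44, -4.20 and -4.77. Against Flica-negative CD8 cells, 4 of 38 Zfp genes tested were called higher (Zfp385a, Zfp516, Zfp608 and Zfp72) and 1 lower (Zfp981), where 21.5% and 2.75% of all 4357 genes were. TMM scaling moved the median of all genes by -0.56 and raised calls lower from 11.3% to 38.3% of all calls. The shares in that comparison did not exceed the background in either direction. Zfp2 and Zfp879 had too few counts to be tested in it.

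Zfp516 (ENSMUSG00000058881), a regulator of the brown fat program, had 355, 571 and 972 normalized counts in CD8 Flica-positive, 33.03, 55.05 and 80.3 in Flica-negative and 267, 237 and 183 in control CD8 libraries. CD4 values were 96.03, 78.3 and 96.1 in control and 22.04, 1.12 and 16.8 in Flica-negative libraries. The Flica-positive libraries were the highest of all 15 and differed among themselves, and the Flica-negative libraries of both lineages were below their controls. On the log2 scale the change was 3.49 (SE 0.46, edgeR adjusted p = 1.6e-04) against Flica-negative cells. It was -2.02 (SE 0.42, edgeR adjusted p = 0.0019) in CD8 and -2.72 (SE 0.74, edgeR adjusted p = 0.0077) in CD4 Flica-negative cells against their controls. Against control cells the Flica-positive value was 1.47 (SE 0.41, edgeR adjusted p = 0.012), whose sign TMM scaling reversed to -0.29 (edgeR adjusted p = 0.49, 0.0031 to 0.49 over the alternatives with all libraries, DESeq2 included).

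Zfp385a (ENSMUSG00000000552), which steers p53 toward genes of cell cycle arrest and also binds RNA in platelet precursors, had 98.5, 227 and 301 normalized counts in CD8 Flica-positive, 14.9, 14.9 and 12.9 in Flica-negative and 19.4, 28.7 and 18.3 in control CD8 libraries. In CD4 cells it had 14.5, 27.1 and 17.8 in control and 18.5, 3.35 and 25.6 in Flica-negative libraries. It was low in 4 groups alike and high in all 3 Flica-positive libraries. Expressed as a log2 fold change it was 3.86 (SE 0.57, edgeR adjusted p = 3.8e-04) against Flica-negative and 3.23 (SE 0.65, edgeR adjusted p = 0.0025) against control cells, comparisons that share the Flica-positive libraries. The latter call was lost with TMM scaling (log2 fold change 1.49, edgeR adjusted p = 0.068, 1.1e-07 to 0.068 over the alternatives with all libraries, DESeq2 included).

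Zfp608 (ENSMUSG00000052713), described as a brake on Rag genes in thymocytes, had 204, 184 and 215 normalized counts in CD4 control and 25.6, 39.1 and 69.7 in CD4 Flica-negative libraries. In CD8 cells it had 160.3, 109 and 129.8 in control, 23.4, 67.2 and 65.6 in Flica-negative and 117, 264 and 134 in Flica-positive libraries. Both Flica-negative groups were below their controls without overlap, and the Flica-positive libraries overlapped the CD8 controls. The change (log2) was -2.16 (SE 0.42, edgeR adjusted p = 9.5e-04) in CD4 and -1.35 (SE 0.49, edgeR adjusted p = 0.031) in CD8 Flica-negative cells. It was listed through CD4 cells alone, and its call in CD8 Flica-negative cells was lost without CD8 control replicate 1 (0.089) or CD8 Flica-negative replicate 1 (0.069), and also with the replicate block (0.079). Between Flica-positive and Flica-negative cells it was 1.72 (SE 0.56, edgeR adjusted p = 0.045), lost with TMM scaling (edgeR adjusted p = 0.12, 0.014 to 0.12 over the alternatives with all libraries, DESeq2 included) and without CD8 Flica-negative replicate 1 (0.13), CD8 Flica-negative replicate 2 (0.096), CD8 Flica-negative replicate 3 (0.075) or CD8 Flica-positive replicate 2 (0.2).

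Zfp366 (ENSMUSG00000050919), known as DC-SCRIPT, a regulator of conventional dendritic cells, had 98.5, 51.8 and 22.7 normalized counts in CD8 Flica-positive, 30.9, 1.87 and 6.9 in Flica-negative and 1.76, 5.37 and 0 in control CD8 libraries. CD4 cells had 2.23, 0 and 0 in control and 0, 0 and 7.21 in Flica-negative libraries. All Flica-positive libraries were above all controls, while Flica-negative replicate 1 lay above Flica-positive replicate 3. Its log2 fold change was 4.52 (SE 1.32, edgeR adjusted p = 0.015) against control and 2.12 (SE 1.06, edgeR adjusted p = 0.17) against Flica-negative cells, the latter 3.67 without Flica-negative replicate 1. The former call was lost with TMM scaling (log2 fold change 3.00, edgeR adjusted p = 0.079, 2.6e-04 to 0.079 over the alternatives with all libraries, DESeq2 included) and without CD8 control replicate 1 (0.055), and also with the replicate block (0.054). Of 9 dendritic cell markers 6 are listed, Cd74 having the most counts over all libraries, and their summed normalized counts were 13966, 10137 and 9547 in CD8 control, 11256.5, 10244 and 8081 in CD8 Flica-negative and 16779, 18816 and 16371 in CD8 Flica-positive libraries. In CD4 cells they were 13540.4, 9949.5 and 10209 in control and 1912, 2068 and 1376 in Flica-negative libraries. The markers did not move together: in CD8 Flica-negative against control cells Cd74, H2-Aa and H2-Ab1 were called lower, Itgax and Xcr1 higher and Flt3 neither. Cd74 went from 7008 ± 1185 in CD8 control to 714 ± 173 in CD8 Flica-negative and 6769 ± 308 in CD8 Flica-positive cells. Itgax went from 111 ± 23.6 to 8514 ± 1538 and 5234.5 ± 685, and has the most counts of the list in CD8 Flica-negative cells. The part of dendritic cell RNA in the Zfp366 values was not tested.

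Markers of other blood cells moved with the rises in CD8 Flica-positive cells. All 14 neutrophil markers are listed, Ngp having the most counts, with sums of 200517, 357705 and 387729 normalized counts in CD8 Flica-positive, 11864, 18188.5 and 18053 in Flica-negative and 118, 60.9 and 74.05 in control CD8 libraries. Of 14 macrophage and monocyte markers 12 are listed, led by Lyz2, with sums of 20329, 40727.5 and 39119 in the first of these groups. They had 1682, 3096 and 2570.0 in the CD8 Flica-negative and 246, 184.5 and 153 in the CD8 control libraries. Both lists were highest in the Flica-positive libraries. Of 10 erythroid markers 6 are listed, led by Hba-a1, with sums of 111917.5, 7376 and 1699 in Flica-positive and 3755, 611 and 324 in Flica-negative libraries. Replicate 1 stood far above the rest in both groups. Of 5 megakaryocyte markers 4 are listed, led by Itga2b, with sums of 280.2, 262.5 and 494 in Flica-positive and 24.5, 48.5 and 63 in Flica-negative libraries, where Gp9 was at 0. In CD4 Flica-negative cells the sums were 2670.4, 4712 and 7795 for neutrophil, 763.5, 1048 and 1188.5 for macrophage, 2025, 760.0 and 379.6 for erythroid and 47.6, 21.2 and 80.1 for megakaryocyte markers. CD4 control libraries had 144, 80.3 and 65.8 for neutrophil, 337, 239.8 and 246 for macrophage, 9222, 9193 and 2053 for erythroid and 153, 110.2 and 113 for megakaryocyte markers. Elane, Ly6g, Camp and C1qa were at 0 in CD8 control cells. Erythroid sums in CD8 control libraries were 7337, 8153 and 2019.5, and those of megakaryocyte markers 107.5, 111 and 124. The part of these cells in the rises of Zfp516, Zfp385a, Zfp608, Zfp366, Zfp768, Zfp473, Zfp941 and Zfp72 in CD8 Flica-positive cells was not tested.

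Zfp72 (ENSMUSG00000069184) had no count in any CD8 Flica-negative library, and 45.8, 52.8 and 17.3 normalized counts in CD8 control and 19.9, 30.6 and 31.1 in CD8 Flica-positive libraries. CD4 cells had 37.97, 73.5 and 21.4 in control and 7.93, 5.58 and 12.01 in Flica-negative libraries. It thus had no count in 1 group and counts in every library of the others. It was at least 13.5-fold lower in CD8 Flica-negative than in CD8 control cells, and Flica-positive cells exceeded Flica-negative cells at least 9.51-fold (edgeR adjusted p = 0.012). The CD4 fall, -2.35 (SE 0.77, edgeR adjusted p = 0.02), was lost without CD4 control replicate 2 (0.16) or CD4 Flica-negative replicate 2 (0.054), and also with the replicate block (0.1). The CD4 and CD8 responses differed (edgeR adjusted p = 0.028, 0.0073 to 0.047 over the alternatives with all libraries, DESeq2 included), a call lost without CD4 control replicate 1 (0.056), CD4 Flica-negative replicate 3 (0.052), CD8 control replicate 2 (0.06), CD8 Flica-negative replicate 1 (0.05), CD8 Flica-negative replicate 2 (0.059) or CD8 Flica-negative replicate 3 (0.058).

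Zfp980, Zfp981 and Zfp990 are KRAB members on chromosome 4 with 13, 7 and 13 fingers, and none had a count in any Flica-positive library. Zfp990 (ENSMUSG00000078503) had 13.2, 25.97 and 0 normalized counts in CD8 control, 13.8, 15.9 and 6.04 in CD8 Flica-negative, 0, 0 and 0 in CD4 control and 5.29, 10.04 and 12.01 in CD4 Flica-negative libraries. It was at least 3.07-fold higher on day 7 in CD4 cells, a call (edgeR adjusted p = 0.025) lost without CD4 control replicate 1 (0.052), CD4 control replicate 2 (0.063), CD4 Flica-negative replicate 2 (0.053) or CD4 Flica-negative replicate 3 (0.059), and also with the replicate block (0.13). The CD4 and CD8 responses of Zfp990 were not shown to differ (edgeR adjusted p = 0.094). Zfp981 (ENSMUSG00000056300) had 23.4, 14 and 16.4 in CD8 Flica-negative libraries, which makes it at least 5.06-fold lower in CD8 Flica-positive cells. That call (edgeR adjusted p = 0.03) failed without CD8 Flica-negative replicate 1 (0.1), CD8 Flica-negative replicate 2 (0.081), CD8 Flica-negative replicate 3 (0.079) or CD8 Flica-positive replicate 2 (0.06), and also with the replicate block (0.1). Zfp981 had 5.29, 27.8 and 4.81 in CD8 control, 0, 11.6 and 0 in CD4 control and 1.76, 6.7 and 0 in CD4 Flica-negative libraries, groups that overlap. Zfp980 (ENSMUSG00000058186) had 0.881, 26.9 and 4.81 in CD8 control, 3.2, 11.2 and 12.1 in CD8 Flica-negative, 0, 2.9 and 0 in CD4 control and 5.29, 4.46 and 0.801 in CD4 Flica-negative libraries, with control and day 7 groups overlapping in both lineages.

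The fingers of these 3 genes are much alike, and part of the reads of Zfp980 and Zfp981 cannot be assigned to 1 gene. Of 150-base stretches of the Zfp980 transcripts, 20.7% also occur in other genes, among them Rex2, Zfp600 and Zfp978, 2.96% of those of Zfp981 do, and 0% of those of Zfp990. To show the likeness, the finger sequence found most often in each is printed, with that of a finger of Zfp831 for contrast. Each runs over 63 bases of coding sequence from GENCODE M21 transcripts of build GRCm38, with the codons of the zinc-binding cysteines and histidines in capitals. The Zfp980 sequence recurs unchanged in 3 of its fingers, that of Zfp981 in 3 and that of Zfp990 in 2.
Zfp980: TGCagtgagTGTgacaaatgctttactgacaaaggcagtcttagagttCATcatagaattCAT
Zfp981: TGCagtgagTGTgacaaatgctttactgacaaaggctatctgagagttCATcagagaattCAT
Zfp990: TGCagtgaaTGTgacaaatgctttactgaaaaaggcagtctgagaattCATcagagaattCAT
Zfp831: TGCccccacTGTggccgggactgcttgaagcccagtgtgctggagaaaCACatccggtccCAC

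Shared stretches also bear on Zfp935 (56.9%, with another gene of the same name), Zfp114 (19.9%, Gm15442 and Zfp111) and Zfp704 (17.4%, C030034L19Rik), while Zfp974, Zfp980 and Zfp981 are given above and the other translated members had none. Zfp114 (ENSMUSG00000068962) had 12.3, 8.06 and 25 normalized counts in CD8 control and 2.23, 15.5 and 21.4 in CD4 control libraries, and none in a Flica-negative library of either lineage. It was at least 5.29-fold lower on day 7 in CD8 and 4.65-fold in CD4 cells, and the call in CD4 cells was lost without CD4 control replicate 2 (0.051), and also with the replicate block (0.084). Zfp2 (ENSMUSG00000049321) had 81.9, 33.1 and 81.7 in CD8 control, 0, 0 and 4.32 in CD8 Flica-negative and no count in CD8 Flica-positive libraries, at least 18.5-fold lower than in control cells. In CD4 cells Zfp2 had 69.2, 47.4 and 25.8 in control and 7.05, 8.93 and 9.61 in Flica-negative libraries, a change of -2.46 (SE 0.71, edgeR adjusted p = 0.011) that was lost without CD4 control replicate 1 (0.077), and also in the fit of all 15 libraries (0.057) and with the replicate block (0.066). Zfp229 was at least 2.76-fold lower in CD8 Flica-negative than in control cells, a call lost with the replicate block (edgeR adjusted p = 0.12), and Zfp947, Zfp980, Zfp981 and Zfp990 were at least 3.72, 3.06, 3.56 and 3.68-fold lower in Flica-positive than in control cells. Zfp947 had 0, 11.6 and 27.9 in CD8 control libraries, and without CD8 control replicate 3 its limit was 1.64. Without CD8 control replicate 2 the limits of Zfp980, Zfp981 and Zfp990 were 0.802, 1.42 and 1.86, so that of Zfp980 shows no fall, and without CD8 control replicate 3 that of Zfp990 was 5.53. The calls were lost for Zfp947 in each fit without a library except CD8 control replicate 1 (adjusted p from 0.069 to 0.1), for Zfp980 likewise (0.054 to 0.084), for Zfp990 in each except CD8 control replicate 3 (0.066 to 0.095), and for Zfp981 without CD8 Flica-positive replicate 2 (0.054), and also with the replicate block (0.13), all by edgeR's test. With the replicate block the calls of Zfp947 (0.16), Zfp980 (0.17) and Zfp990 (0.15) were lost, and by DESeq2's Wald test those of Zfp947 (0.085) and Zfp990 (0.084).

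Of the members not yet described, Zfp14 (ENSMUSG00000053985), a KRAB gene listed only through CD4 cells, had 93.4, 115 and 51.9 normalized counts in CD8 control and 42.6, 21.5 and 36.2 in CD8 Flica-negative libraries. These groups did not overlap, and the change of -1.37 (SE 0.52, edgeR adjusted p = 0.037) was lost without CD8 control replicate 1 (0.079), CD8 control replicate 2 (0.13), CD8 Flica-negative replicate 2 (0.11) or CD8 Flica-negative replicate 3 (0.072), and also in the fit of all 15 libraries (0.17) and with the replicate block (0.12). In CD4 cells, where it was listed, it had 148.5, 138 and 117 in control and 32.6, 36.8 and 24.8 in Flica-negative libraries, a clear gap (-2.10, SE 0.41, edgeR adjusted p = 9.7e-04). Zfp78, another KRAB gene, had 61.4, 55.1 and 69.4 in CD4 control and 28.2, 12.3 and 6.41 in CD4 Flica-negative libraries, without overlap. Its fall of -1.98 (SE 0.66, edgeR adjusted p = 0.022) was lost without CD4 control replicate 1 (0.053), CD4 Flica-negative replicate 2 (0.062) or CD4 Flica-negative replicate 3 (0.056), and also in the fit of all 15 libraries (0.12). CD8 cells had 67.8, 44.8 and 36.5 in control and 12.8, 26.1 and 10.4 in Flica-negative libraries, also without overlap, and that fall of -1.59 (SE 0.62, edgeR adjusted p = 0.043) was lost without CD8 control replicate 1 (0.13), CD8 control replicate 2 (0.07), CD8 Flica-negative replicate 1 (0.11) or CD8 Flica-negative replicate 3 (0.12), and also in the fit of all 15 libraries (0.19) and with the replicate block (0.11).

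Zfp551 had 46.9, 50.3 and 145 normalized counts in CD4 control and 9.7, 12.3 and 39.2 in CD4 Flica-negative libraries, where CD4 control replicate 3 stood well above the rest. The fall of -1.97 (SE 0.70, edgeR adjusted p = 0.029), or -1.24 without that library, was lost without CD4 control replicate 3 (0.16), CD4 Flica-negative replicate 1 (0.097) or CD4 Flica-negative replicate 2 (0.1), and also in the fit of all 15 libraries (0.12). CD8 cells had 61.7, 42.98 and 45.2 in control and 20.2, 1.87 and 4.32 in Flica-negative libraries, low in all of the latter, and the fall of -2.51 (SE 0.84, edgeR adjusted p = 0.023), or -3.96 without Flica-negative replicate 1, was lost without CD8 control replicate 1 (0.067), CD8 Flica-negative replicate 2 (0.057) or CD8 Flica-negative replicate 3 (0.073), and also in the fit of all 15 libraries (0.055). Zfp493, listed only through CD4 cells, had 64.3, 60.9 and 10.6 in CD8 control and 24.5, 14 and 24.2 in CD8 Flica-negative libraries, which overlapped, and it was not called there (-1.11, SE 0.73, edgeR adjusted p = 0.19). Zfp455, Zfp759, Zfp946, Zfp935 and Zfp947 were not called in CD4 cells, and of these only Zfp759 was called in CD8 Flica-negative cells. Zfp759 was called in CD4 cells with TMM scaling (0.049) and Zfp946 with the replicate block (0.039), while Zfp455 was called in CD8 Flica-negative cells with TMM scaling (0.027) and by DESeq2 (0.042). The CD4 change of Zfp946, -1.74 with all libraries, was -3.15 and called without CD4 Flica-negative replicate 2 (edgeR adjusted p = 0.012). Zfp759 had 88.98, 43.9 and 112.5 in CD8 control and 41.5, 13.1 and 18.1 in CD8 Flica-negative libraries, with no overlap, and its fall of -1.76 (SE 0.61, edgeR adjusted p = 0.027) was lost without CD8 control replicate 1 (0.063), CD8 control replicate 3 (0.073), CD8 Flica-negative replicate 2 (0.088) or CD8 Flica-negative replicate 3 (0.082), and also in the fit of all 15 libraries (0.091) and with the replicate block (0.051). Zfp935, Zfp704 and Zfp990 are among the 7 listed between Flica-positive and Flica-negative cells but were not called by edgeR's test. For Zfp990 (edgeR adjusted p = 0.057) TMM scaling (0.036), DESeq2 (0.042) and the fit of all 15 libraries (0.033) gave a call lower. Zfp704 had 30.5, 34.1 and 16.7 in CD8 Flica-positive and 1.06, 0 and 3.45 in CD8 Flica-negative libraries, without overlap, at 4.04 (SE 1.45, edgeR adjusted p = 0.064), and was called there by DESeq2 (adjusted p = 0.013).

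Proteins that act with KRAB zinc fingers were nearly all outside the tables: of 24 such genes 2 are listed, and Trim28 and Setdb1 are not among them. Uhrf1, which brings the methyltransferase Dnmt1 to replicated DNA, had 343 ± 77.6 normalized counts (SD, n = 3) in CD8 control, 2665 ± 923 in CD8 Flica-negative and 3874 ± 528 in CD8 Flica-positive cells, and 208 ± 6.82 in CD4 control and 1273 ± 289 in CD4 Flica-negative cells. It rose in each day 7 group, by 2.96 (SE 0.31, edgeR adjusted p = 1.7e-05) on the log2 scale in CD8 and 2.61 (SE 0.22, edgeR adjusted p = 1.3e-06) in CD4 Flica-negative cells. Chd3, a remodeller of the NuRD complex, fell, from 16395 ± 1676 in CD8 control to 3767 ± 353 in Flica-negative and 2326 ± 281 in CD8 Flica-positive cells, and from 23821.5 ± 2932.5 in CD4 control to 5964 ± 654 in CD4 Flica-negative cells. Its log2 fold change was -2.12 (SE 0.13, edgeR adjusted p = 5.5e-07) in CD8 and -2.00 (SE 0.15, edgeR adjusted p = 5.1e-07) in CD4 Flica-negative cells, and -0.70 (SE 0.20, edgeR adjusted p = 0.024) between Flica-positive and Flica-negative cells. Of 20 RNA decay genes that act with Zfp36 proteins only Zc3h12a, the nuclease Regnase-1, is listed. Zc3h12a rose by 1.61 (SE 0.20, edgeR adjusted p = 6.4e-05) in CD8 and by 2.53 (SE 0.18, edgeR adjusted p = 3.0e-07) in CD4 Flica-negative cells.

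Other zinc finger families hold 39 listed genes. In CD8 Flica-negative cells 14 were called higher and 15 lower (median log2 fold change 0.54), in CD4 Flica-negative cells 10 higher and 13 lower (median -0.22). Of all genes tested, 38.2% were called higher and 29.5% lower in CD8, and 32.3% and 27.3% in CD4 Flica-negative cells. In Flica-positive cells 17 of the 39 were higher and 15 lower than in control (median 1.49), and 8 higher and 0 lower than in Flica-negative cells (median -0.09). There, all genes tested gave 47.1% higher and 24.1% lower against control, and 21.5% and 2.75% against Flica-negative cells. The Zscan family, whose genes carry the same type of finger as most Zfp genes, has 4 listed members. In both Flica-negative groups 3 of them were called lower and 0 higher, where 29.5% (CD8) and 27.3% (CD4) of all genes were called lower. Of 8 Zbtb genes 4 were lower and 2 higher in CD8 Flica-negative cells, and 5 lower and 1 higher in CD4 Flica-negative cells. Whether the Zfp genes and these families differ was not tested.

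The rule did not use position. Of the 40 genes 13 lie on chromosome 7, 6 on chromosome 13, 4 on chromosome 17, and 3 each on chromosomes 4 and 11. Besides Zfp354c and Zfp879, the neighbours Zfp667 and Zfp583 lie 7776 bases apart on chromosome 7 on opposite strands. Zfp667 had 136, 127 and 155 normalized counts in CD8 control and 50.1, 10.3 and 35.4 in CD8 Flica-negative libraries, and Zfp583 had 30.8, 65.4 and 16.4 and 5.33, 24.3 and 28.5. Zfp667 was called lower (-2.13, SE 0.56, edgeR adjusted p = 0.0072), while the Zfp583 groups overlapped and it was not called (-0.94, SE 0.78, edgeR adjusted p = 0.29), with -0.28 without CD8 control replicate 2 and -0.51 without Flica-negative replicate 1. In CD4 cells Zfp667 had 123, 89.9 and 63.1 in control and 44.1, 43.5 and 8.01 in Flica-negative libraries, and Zfp583 had 13.4, 31.9 and 50.7 and 0, 5.58 and 3.2. There Zfp667 was just outside the threshold at -1.53 (SE 0.62, edgeR adjusted p = 0.051) and was called with TMM scaling (0.033), by DESeq2 (0.039) and with the replicate block (0.035). Zfp583 was called in CD4 cells at -3.43 (SE 1.15, edgeR adjusted p = 0.023), a call lost without CD4 control replicate 2 (0.058) or CD4 control replicate 3 (0.074). The CD8 call of Zfp667 was lost in the fit of all 15 libraries (edgeR adjusted p = 0.062). The CD4 and CD8 responses were not shown to differ for Zfp667 (edgeR adjusted p = 0.74) or Zfp583 (edgeR adjusted p = 0.27).

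Promoters (250 bases before to 50 after the start, RefSeq, build GRCm38.p6) were available for 29 members, with 35 entries. The GC box GGGCGG, searched on both strands, occurs in 20 of these 35, from 17 genes (57.1%), and in 35.7% of all 32851 promoters of that length. CCGGAAG, an ETS-type motif, occurs in 17.1% and 8.86%, CACGTG in 11.4% and 7.15%, TGACGTCA in 11.4% (4 entries, from only 2 of the 29 genes) and 1.79%, GTAAACA in 5.71% and 3.65%, and TGANTCA in 0% and 7.81%. The longer YY1-type motif occurs in 2.86% and 0.852%, and the NRF1-type motif in 0% and 0.971%. None of these motifs contains another, and a match is a description of the letters, not a site in use. Of the 4 genes called in the test of the difference between the CD4 and CD8 responses, Zfp318 and Zfp827 have 1 entry each, which is printed, Zfp72 has 2 and Zfp831 has 0. Motif matches are in capitals: GGGCGG is found 3 times in the promoter of Zfp318, 1 of them read from the other strand as CCGCCC, and the window of Zfp827 holds none of the motifs. They lie at chr17:46383516-46383815 (Zfp318) and chr8:79028187-79028486 (Zfp827), both on the plus strand.
Zfp318: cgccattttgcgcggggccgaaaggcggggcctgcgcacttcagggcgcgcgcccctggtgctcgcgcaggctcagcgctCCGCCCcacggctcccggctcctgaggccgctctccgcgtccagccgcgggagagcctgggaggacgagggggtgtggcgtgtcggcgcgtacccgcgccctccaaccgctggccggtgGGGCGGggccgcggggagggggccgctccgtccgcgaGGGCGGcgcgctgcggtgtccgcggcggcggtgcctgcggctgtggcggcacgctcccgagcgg
Zfp827: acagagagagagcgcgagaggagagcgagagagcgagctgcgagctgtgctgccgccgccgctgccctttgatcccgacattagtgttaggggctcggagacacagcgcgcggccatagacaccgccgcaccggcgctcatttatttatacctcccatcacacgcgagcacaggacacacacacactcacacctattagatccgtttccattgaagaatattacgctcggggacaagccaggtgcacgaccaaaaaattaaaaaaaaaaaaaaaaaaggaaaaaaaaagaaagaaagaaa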

How the data were processed

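The files are the authors' 4 deposited tables of changed genes. The counts are the authors' raw read counts per gene in all 15 libraries, as deposited, from reads aligned with STAR to GRCm38, without normalization. The mean expression signal, as deposited by the authors, is the mean of the counts divided by DESeq2 size factors. The log2 fold change, its standard error, the Wald statistic and the p-values, raw and adjusted, are the authors' own, as deposited, and are not used as results. The authors' deposited tables of enriched terms were not used. The counting tool and the annotation are not given.

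Size factors were recovered by solving the deposited means for 1 factor per library (largest relative error 5.8e-15). Genes whose mean over the libraries compared reached 1 normalized count were tested with edgeR's quasi-likelihood test on the 2 groups, or, for the difference of the CD4 and CD8 responses, on 4 groups, with those factors and Benjamini-Hochberg adjustment over all listed genes tested. Alternatives were TMM, DESeq2's Wald test, a mean of at least 10, no filter, a fit of all 15 libraries, a replicate block, an adjusted p below 0.01 and each library left out. The tests were tested on simulated data, from which no value is given here. Genes named by rule were, per comparison and direction, the 5 with the largest change among those called with a mean of at least 50, the 5 with the smallest p for the difference of responses, any called with opposite signs in CD4 and CD8 cells (none was), the listed genes of a list of 26 with known roles (4 are listed: Zfp318, Zfp366, Zfp385a and Zfp467), and the partner genes called in any comparison with a mean of at least 50. The other Zfp genes were named after their values were seen. Members and lists were chosen with earlier results of these data known. Lists of markers, partners, division genes and other zinc finger families were read by symbol, and 1 marker is not reported here by name.

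Positions, exon lengths, transcripts and translations came from GENCODE M21, which holds all 40 Zfp genes, and promoters from RefSeq. Protein features were planned on RefSeq proteins, which were not at hand. The motifs were chosen, and the KRAB pattern loosened, after data were seen. Software was R 4.3.3, edgeR 4.0.16, limma 3.58.1, DESeq2 1.42.0, Python 3.11.15, pandas 2.3.3, numpy 2.4.6, scipy 1.17.1 and matplotlib 3.10.9.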

Additional observations from a re-analysis of the deposited data

Results flagged for a closer look

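The CD4 and CD8 responses to day 7 differed by the edgeR interaction test for 4 of 40 Zfp genes, a share near the 10.4% of all 4511 genes tested, each with a CD4 response above the CD8 response. The difference (CD4 minus CD8, log2) was 1.53 for Zfp318 (SE 0.27, edgeR adjusted p = 0.0013), 0.93 for Zfp831 (SE 0.25, edgeR adjusted p = 0.023) and 1.04 for Zfp827 (SE 0.32, edgeR adjusted p = 0.047). For Zfp72 the fitted difference was 6.02 (edgeR adjusted p = 0.028), which is no measure of size, since Zfp72 had no count in CD8 Flica-negative cells. The calls of Zfp831 and Zfp827 were lost with TMM scaling (edgeR adjusted p = 0.089 and 0.12) and in the fit of all 15 libraries (edgeR adjusted p = 0.09 and 0.21). Only that of Zfp318 was called in all 12 fits with a library left out. No explanation was weighed.

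The tables hold selected genes, so the 40 Zfp genes are those that changed strongly somewhere, and nothing here speaks for the family as a whole. Each group has 3 libraries, of many mice on day 7 and of few or a single mouse in controls, so spread between mice is not measured alike. Control and day 7 cells differ in transplantation, host, irradiation and time, which cannot be told apart. Scarce members rest on few counts, and intervals and bounds cover counting error only. Markers of other cells moved with several results, and their part was not tested.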

How the results depend on the processing

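For 39 changes of named Zfp genes (30 called), 493 alternative values were computed: 447 kept direction and side of the threshold, 40 lost the call, 5 gained it and 1 reversed, the change of Zfp516 between CD8 Flica-positive and control cells, at -0.29 with TMM scaling. Leaving out a library gave 28 of the lost calls, TMM scaling 5, the fit of all 15 libraries 4, the replicate block 2 and DESeq2 1. Where counts below changed, the cause was not tested, apart from the stricter threshold, which calls fewer genes by construction. Shares of all genes called in each direction are not given for these alternatives. The counts of Zfp genes below therefore show only how the calls depend on the processing, and not whether they exceed a background.

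TMM scaling gave 0 Zfp genes higher (from 6) and 27 lower (from 16) in CD8 Flica-positive against control cells, 3 lower (from 1) against Flica-negative cells, and 2 (from 4) with differing CD4 and CD8 responses. DESeq2 gave 2 lower between Flica-positive and Flica-negative cells. A mean of at least 10 gave 1 higher in CD8 and 1 in CD4 Flica-negative cells (from 2 each), and 0 lower between Flica-positive and Flica-negative cells. The fit of all 15 libraries gave 1 higher in CD8 Flica-negative cells, 14 lower (from 24) in CD4 cells, 3 lower between Flica-positive and Flica-negative cells, and 2 differing responses.

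With the replicate block there were 1 higher in CD4 Flica-negative cells, 2 higher and 9 lower in Flica-positive against control cells, with 2107 listed genes called (from 3236), and 0 lower between Flica-positive and Flica-negative cells. Across genes, deviations of same-numbered Flica-positive and Flica-negative libraries from their group means correlated at 0.111, 0.032 and 0.0628, low values that were each the highest for the own number.

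At an adjusted p below 0.01 there were 1 higher and 13 lower in CD4 Flica-negative cells, 1 higher and 9 lower in Flica-positive against control cells (2118 listed genes), 2 higher and 0 lower between Flica-positive and Flica-negative cells (636 listed genes, from 1058), and 1 differing response.

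With a library left out, Zfp genes called higher ranged from 1 to 2 in CD8 and in CD4 Flica-negative cells, those lower between Flica-positive and Flica-negative cells from 0 to 1, listed genes called there from 686 (without Flica-negative replicate 2) to 1028, and differing responses from 1 to 4. Zfp genes called lower ranged from 20 to 25 in CD8 and from 18 to 22 in CD4 Flica-negative cells, and those with the same sign in both from 35 to 38. Counts on listed genes do not give depth, so the level below which a change could not be seen is not known.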
